A study of Mus musculus with 12 samples.

Results

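10 genes of the Hippo pathway and its transcriptional output were followed through 12 RNA libraries of mouse kidney tubular epithelial cells. They are Yap1, Wwtr1, Tead1, Tead2, Tead3, Lats1, Lats2, Amotl2, Ankrd1 and Ajuba, taken as named Hippo kinases, coactivators, TEAD factors, regulators and targets outside the CCN family. All 10 were matched by their mouse Ensembl identifier among 55487 identifiers in the count table, and all 10 were among the 12897 genes that passed the filter on low counts. The cells were a conditionally immortalised line (im_TEC) with an SV40 large T antigen. Cells of every group were grown at 33 °C with interferon γ at 10 ng/mL and then kept for 7 days at 37 °C without interferon γ, which lowers the antigen's activity, and had been transduced and selected on puromycin. The construct was either a mock or one for expression of Nnmt (labelled Nnmt-OE). Cells of each kind received no cytokine or TGFβ, transforming growth factor β, at 10 ng/mL for 48 h. The 4 groups, mock, mock with TGFβ, labelled Nnmt-OE and labelled Nnmt-OE with TGFβ, had 3 libraries each. The labels do not say what promoter drove the construct, how many clones were used or whether replicates grew in separate cultures. The p-values therefore cover the spread among these libraries, and that spread may be technical.

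In the Hippo pathway, the kinases LATS1 and LATS2 phosphorylate the coactivators YAP (Yap1) and TAZ (Wwtr1), which holds them in the cytoplasm or sends them to degradation. Unphosphorylated YAP and TAZ enter the nucleus and bind TEAD factors, which carry them to DNA at a short element called the M-CAT site. Much of this control acts on phosphorylation and location of the proteins, which RNA counts do not measure. In kidney tubules YAP and TAZ are known for responses to injury, stiffness and TGFβ.

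Reads assigned to genes numbered 4733846 to 7247413 per library, and the 10 genes together took 0.237 to 0.338% of them. Levels are given as CPM, the count scaled to a common library size after scaling of the libraries. The method reads about 1 tag at the 3' end of each transcript, so CPM was compared between genes without division by length. Reads outside genes made up 26.4 to 28.79% and the annotation release is not given, so levels compared between genes are approximate. Nnmt itself was at 17.8 to 24.7 CPM in mock and 22.9 to 28.5 in labelled Nnmt-OE libraries, and at 27.9 to 33.4 and 22.5 to 33.9 CPM with TGFβ, and it passed the test in no comparison, so the construct groups are named by their label. Whether 3' tags of the construct's transcript would be counted as Nnmt is not given in the sources used here, so these values check neither the construct nor the labels. Mock replicate 1, mock with TGFβ replicate 3 and labelled Nnmt-OE with TGFβ replicate 3 stood apart from the rest on the leading principal components. Of 13 tubular epithelial markers, 8 were measured, among them Pax8 at 215 to 272 CPM and Aqp1 at 595 to 1146 CPM, whereas Cdh1 and Epcam were at 0 in all 12 libraries. The summed level of the tubular markers was 1757 to 2115 CPM in mock, 1577 to 1611 in mock with TGFβ, 2119 to 2180 in labelled Nnmt-OE and 1645 to 1768 in labelled Nnmt-OE with TGFβ. The summed level of 6 fibroblast markers was 3.13 to 5.49, 6.85 to 10.9, 1.48 to 8.07 and 9.51 to 14.3 CPM in the same order. Col1a1 ran from 1.04 to 13.3 CPM, while Pdgfrb reached 2.51, Dcn 1.02 and Pdgfra 0.70 CPM at most. Lum and Thy1 were at 0 in all 12 libraries. Mitochondrial genes took 6.13 to 7.31% of reads without TGFβ and 6.05 to 6.62% with it. These values move with TGFβ beside the results below, and their part in them was not tested. In bulk RNA, fewer cells of a type and less RNA per cell cannot be told apart.

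In mock cells the 10 genes spanned a wide range of levels. Ankrd1, a muscle-type ankyrin repeat protein and a classical YAP target, was highest at 1250 ± 147 CPM (SD, n = 3). Wwtr1 followed at 416 ± 33.2, Amotl2 at 282 ± 14.7 and Tead1 at 240 ± 7.71 CPM, each separated from its neighbours in every library. Yap1 (100.4 ± 4.52), Ajuba (95.1 ± 4.25) and Tead2 (86.3 ± 8.99 CPM) came next, and the libraries of neighbours in this trio overlapped. Lats2 was at 47.4 ± 1.37 CPM, above Lats1 at 34.8 ± 8.44 and Tead3 at 27.6 ± 5.64, which overlapped each other. The median of all tested genes was 25.6 CPM. In each of the other 3 groups Ankrd1 and Wwtr1 were again first and second, with no overlap between them, and Lats1 and Tead3 were the lowest pair.

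**Figure D1:**
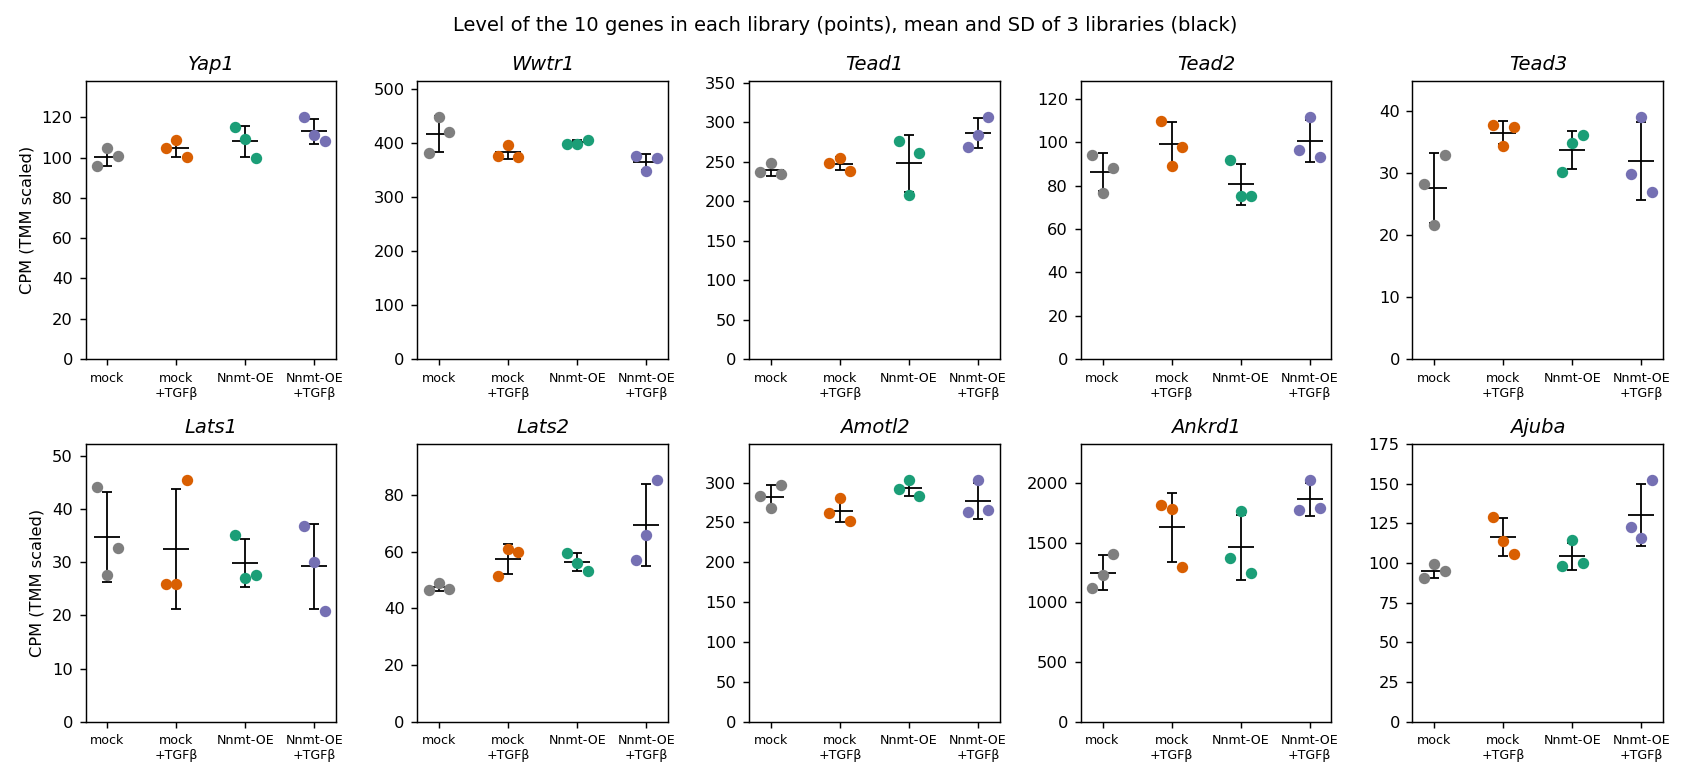
Level of each gene in CPM (vertical axis from 0, one scale per gene) in the 12 libraries (coloured points, 3 per group) with the group mean and SD (black). Ajuba lies higher with TGFβ in both constructs without overlap, from 90.8 to 99.3 CPM in mock against 106 to 129 with TGFβ, while Yap1 stays between 95.7 and 120.0 CPM in all 12 libraries.

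TGFβ against no treatment asks how the cytokine changes these cells, and it was tested in mock cells, in labelled Nnmt-OE cells and as the average of both. Averaged over constructs, 1 of the 10 genes passed the test, Ajuba, which rose 1.24-fold. In that comparison 5.08% of all genes tested were called by edgeR's quasi-likelihood test at a Benjamini-Hochberg adjusted p under 0.05, and 2.48% were called as higher. The median log2 fold change was 0.14 over the 10 genes and -0.005 over all genes. At an unadjusted p under 0.05 there were 5 of the 10 genes, against 16.6% of all genes. In mock cells alone none of the 10 was called, where 1.43% of all genes were, and 3 of the 10 had an unadjusted p under 0.05 (11.9% of all genes). In labelled Nnmt-OE cells alone none was called, where 1.40% of all genes were, and 4 of the 10 had an unadjusted p under 0.05 (11.1% of all genes).

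Ajuba encodes a LIM-domain protein that sits at cell junctions and can bind and inhibit LATS kinases. Its level was 90.8, 99.3 and 95.3 CPM in mock replicates 1 to 3 and 129, 114 and 106 CPM with TGFβ. In labelled Nnmt-OE cells it was 98.4, 114 and 100.0 CPM, and with TGFβ 122, 116 and 152 CPM. Every treated library was above every untreated one of the same construct, although by little in labelled Nnmt-OE cells, and the highest of all was the replicate 3 that stood apart. Such separation upward in both constructs was seen for 2.36% of all genes, and for no other of the 10. The log2 fold change was 0.29 ± 0.12 (SE) in mock and 0.32 ± 0.12 in labelled Nnmt-OE cells, and 0.31 ± 0.09 on average (95% interval 0.13 to 0.48, edgeR adjusted p = 0.0238). That adjusted p was 0.0973 without mock with TGFβ replicate 1, 0.0730 without labelled Nnmt-OE replicate 1, 0.0716 without labelled Nnmt-OE replicate 3 and 0.118 without labelled Nnmt-OE with TGFβ replicate 3. Without the 3 libraries that stood apart the change was 0.26 with an adjusted p of 0.0663. The direction was the same in all 20 alternatives, and the call held in 15 of them. Among the 3 genes of at least 10 CPM whose log2 CPM followed Ajuba most closely over the 12 libraries were Palld (Pearson r 0.901), an actin-binding protein, and Ddx52 (Pearson r 0.894), out of 9124 genes compared, which is a description of libraries that share groups and depth.

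Ankrd1 is the most abundant of the 10 and a widely used readout of YAP and TAZ activity. Its level was 1117, 1226 and 1408 CPM in mock and 1814, 1783 and 1298 CPM in mock with TGFβ. In labelled Nnmt-OE cells it was 1374, 1767 and 1246 CPM, and with TGFβ 1774, 2026 and 1788 CPM. Mock with TGFβ replicate 3 lay among the untreated libraries and labelled Nnmt-OE replicate 2 was almost as high as the treated ones, so the groups overlapped in mock cells and only just separated in labelled Nnmt-OE cells, as for 8.70% of all genes. The log2 fold change was 0.38 ± 0.15 (SE) in mock, 0.35 ± 0.15 in labelled Nnmt-OE cells and 0.37 ± 0.11 on average, with a 95% interval from 0.13 to 0.60 and an edgeR adjusted p of 0.0839. Leaving out either of those 2 libraries brought a call. The edgeR adjusted p was 0.00136 without mock with TGFβ replicate 3 and 0.00212 without labelled Nnmt-OE replicate 2. Both were singled out by their own Ankrd1 values, so these calls are not independent support. The adjusted p was 0.0371 without the 3 libraries that stood apart, which include mock with TGFβ replicate 3, so the same limit holds. It was 0.0387 with DESeq2 and 0.000987 with limma-voom. The gene was called in 7 of 20 alternatives, the fits without those libraries included. The adjusted p rose as far as 0.250 without mock replicate 1. The classical YAP targets of the CCN family, Ccn1 and Ccn2, rose with TGFβ on average, by 0.43 ± 0.06 (adjusted p = 1.12e-06) and 0.96 ± 0.13 (adjusted p = 0.00132) on the log2 scale.

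Amotl2 encodes an angiomotin family scaffold that binds YAP at junctions and is itself a YAP target. It was at 283, 268 and 297 CPM in mock and 261, 281 and 252 CPM with TGFβ, and at 292, 303 and 283 CPM in labelled Nnmt-OE cells and 263, 303 and 265 CPM with TGFβ. Groups overlapped in both constructs. Its log2 fold change of -0.09 ± 0.06 had a 95% interval from -0.22 to 0.04 (edgeR adjusted p = 0.554), which leaves out a rise of the size measured for Ajuba.

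The start regions of these target genes were read to see whether they hold the TEAD core element. RefSeq windows from 250 bases before to 50 after the start (GRCm38.p6) were found for 9 of the 10, all but Tead1. The hexamer GGAATG, the core of the M-CAT site, occurred on either strand in 7 of the 9 genes, against 16.6% of 27025 genes (14.7% of 32851 windows of the same length). The SMAD element CAGAC occurred on either strand in 5 of 9 against 53.2% of genes, and the AP-1 site TGANTCA in none of 9 against 8.97%. Ajuba, Ankrd1, Amotl2 and Wwtr1 are shown because Ajuba was the only member called, Ankrd1 and Amotl2 are the other classical targets, and Wwtr1 is the larger part of the coactivator pair described below. The 250 bases before each start are printed 5′ to 3′ on the gene's strand, with GGAATG or its reverse complement CATTCC in capitals. They lie at chr19:36119845-36120094 (minus strand) for Ankrd1, chr14:54577662-54577911 (minus) for Ajuba, chr9:102717554-102717803 (plus) for Amotl2 and chr3:57575911-57576160 (minus) for Wwtr1.
Ankrd1: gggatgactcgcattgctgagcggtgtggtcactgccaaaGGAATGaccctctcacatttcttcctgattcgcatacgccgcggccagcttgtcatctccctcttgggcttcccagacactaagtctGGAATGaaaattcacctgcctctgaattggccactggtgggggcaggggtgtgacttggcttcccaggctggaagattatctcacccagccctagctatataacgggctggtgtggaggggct
Ajuba: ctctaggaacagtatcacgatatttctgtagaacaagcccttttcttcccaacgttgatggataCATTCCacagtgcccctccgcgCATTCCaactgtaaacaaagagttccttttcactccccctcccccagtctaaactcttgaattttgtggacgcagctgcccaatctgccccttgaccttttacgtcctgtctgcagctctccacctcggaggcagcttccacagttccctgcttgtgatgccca
Amotl2: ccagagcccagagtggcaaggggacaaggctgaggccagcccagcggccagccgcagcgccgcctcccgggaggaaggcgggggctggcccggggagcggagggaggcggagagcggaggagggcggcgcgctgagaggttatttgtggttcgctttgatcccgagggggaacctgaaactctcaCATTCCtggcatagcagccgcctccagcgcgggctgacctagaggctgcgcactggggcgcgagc
Wwtr1: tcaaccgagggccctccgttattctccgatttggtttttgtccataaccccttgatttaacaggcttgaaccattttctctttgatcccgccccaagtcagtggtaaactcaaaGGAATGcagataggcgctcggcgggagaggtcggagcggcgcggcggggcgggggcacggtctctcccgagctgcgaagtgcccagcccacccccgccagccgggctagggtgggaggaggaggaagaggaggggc
Ankrd1 held 2 matches, 210 and 123 bases before the start, and Ajuba 2, at 186 and 164 bases. Amotl2 held 1 at 65 bases and Wwtr1 1 at 136 bases. Yap1 held 1 at 141 bases, Lats2 had 1 match 4 bases after the start, Tead3 had matches near 2 of its 3 starts, and the windows of Tead2 and Lats1 held none. With TGFβ averaged over constructs, the log2 fold changes of genes with a match ran from -0.13 for Wwtr1 to 0.37 for Ankrd1. Those of the genes without a match were -0.07 for Lats1 and 0.26 for Tead2. Whether matches and changes are related was not tested. A match shows only that these letters are present.

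**Figure D2:**
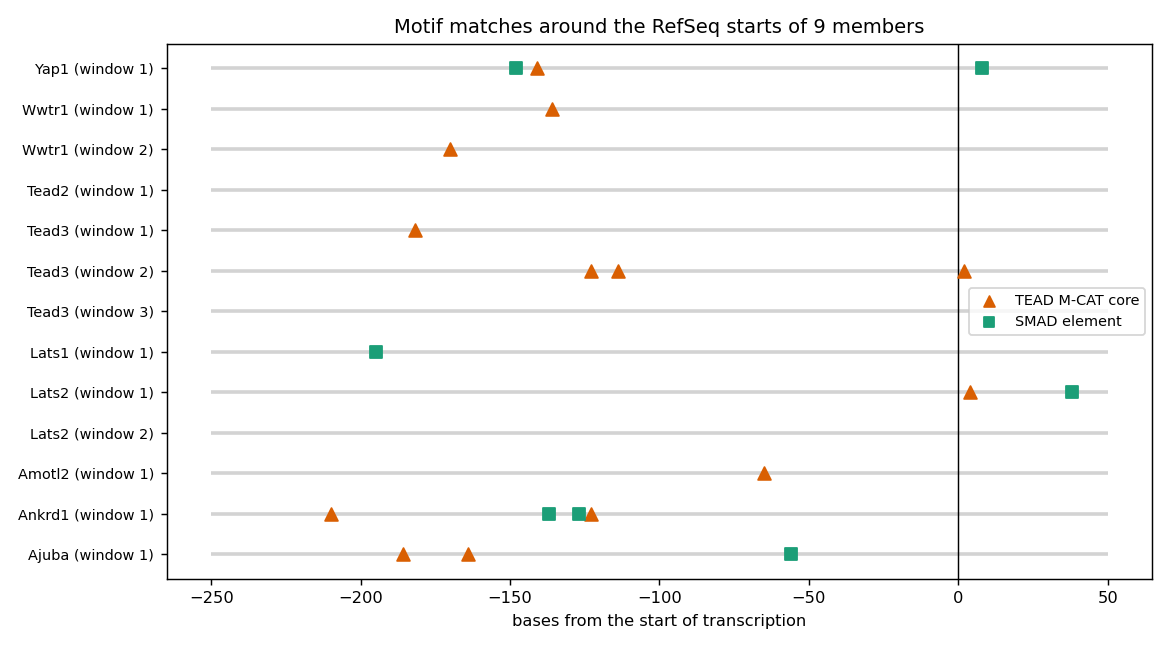
Matches of the TEAD core (triangles) and the SMAD element (squares) by distance in bases from the RefSeq start of transcription (horizontal axis, 0 is the start), one line per start of the 9 genes. TEAD cores occur in 9 of 13 windows, 2 of them each for Ankrd1 and Ajuba, and the 2 windows of Wwtr1 overlap and hold the same match.

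The coactivators did not pass the test. Yap1 was at 95.7, 105 and 101 CPM in mock, 105, 109 and 100.2 with TGFβ, 115, 109 and 100.0 in labelled Nnmt-OE cells and 120.0, 111 and 108 with TGFβ. All groups overlapped in both constructs, and the log2 fold change with TGFβ was 0.06 ± 0.08 (95% interval -0.10 to 0.22, edgeR adjusted p = 0.773). Wwtr1, which encodes TAZ, was at 381, 447 and 420 CPM in mock and 376, 397 and 374 with TGFβ, and at 398, 398 and 406 in labelled Nnmt-OE cells and 375, 348 and 372 with TGFβ. Treated libraries were all below untreated ones in labelled Nnmt-OE cells, a separation downward seen for 8.89% of all genes, and overlapped in mock cells. The log2 fold change was -0.12 ± 0.09 in mock, -0.13 ± 0.09 in labelled Nnmt-OE cells and -0.13 ± 0.06 on average (adjusted p = 0.263).

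Because both coactivators were well counted, their balance was also measured within each library, a comparison added after the levels had been seen. The share of Wwtr1 in the sum of Yap1 and Wwtr1 was 79.9, 81.0 and 80.7% in mock, 78.2, 78.5 and 78.9% in mock with TGFβ, 77.6, 78.5 and 80.2% in labelled Nnmt-OE cells and 75.8, 75.8 and 77.5% in labelled Nnmt-OE cells with TGFβ. Treated libraries were below untreated ones in both constructs, without overlap. In labelled Nnmt-OE cells they separated only narrowly, with the highest treated library at 77.49% and the lowest untreated one at 77.59%. How often the share of another pair of genes separates between groups was not measured. The share was 2.22 percentage points lower with TGFβ (two-sided exact permutation of treatment within constructs, p = 0.005, the smallest its 400 arrangements can give, and 0.03 adjusted over the 6 shares and factors tested). It was 1.97 points lower in labelled Nnmt-OE than in mock libraries (exact permutation p = 0.01, adjusted 0.03), where untreated libraries overlapped and treated ones did not. In every library at least 75.8% of the pair was Wwtr1.

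**Figure D3:**
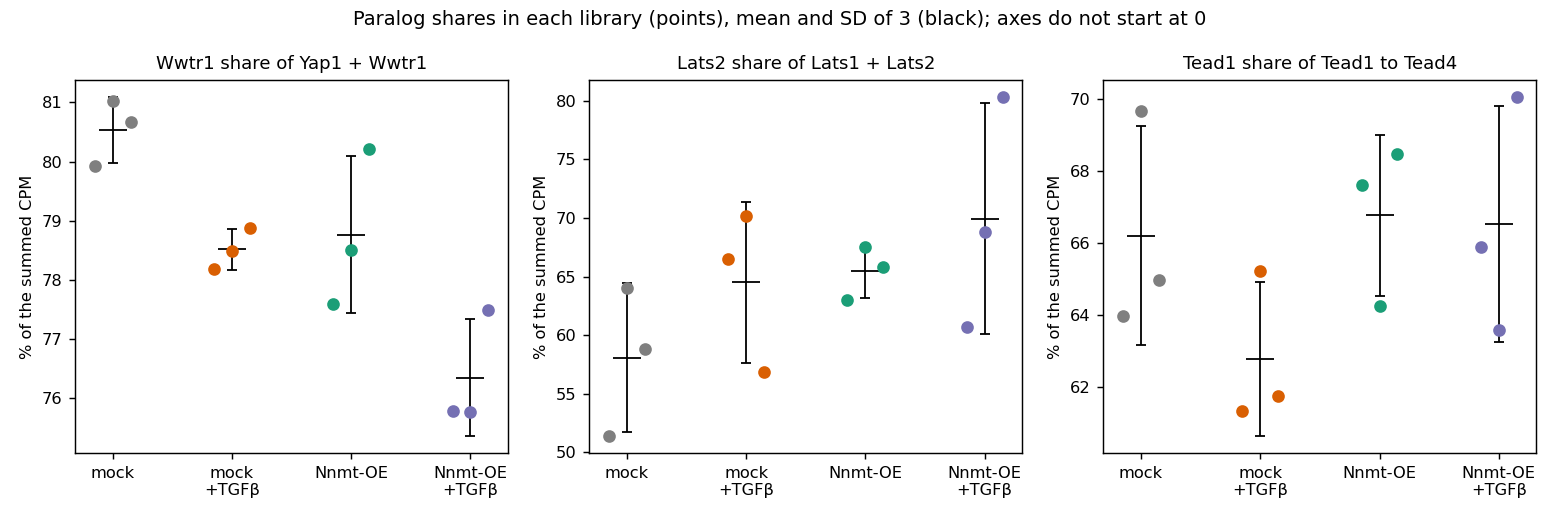
Share of Wwtr1 in Yap1 plus Wwtr1, of Lats2 in Lats1 plus Lats2 and of Tead1 in Tead1 to Tead4, in percent of summed CPM (vertical axes do not start at 0), for the 12 libraries (points) with group mean and SD (black). The Wwtr1 share steps down from a mean of 80.5% in mock to 76.4% in labelled Nnmt-OE with TGFβ, and the Lats2 and Tead1 shares overlap between groups.

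The TEAD factors are the DNA-binding partners of YAP and TAZ. Tead1 was at 237, 249 and 234 CPM in mock, 248, 255 and 239 with TGFβ, 276, 207 and 261 in labelled Nnmt-OE cells and 269, 284 and 307 with TGFβ. Groups overlapped in mock and, because labelled Nnmt-OE replicate 1 reached 276, in labelled Nnmt-OE cells, and the average log2 fold change was 0.13 ± 0.07 (edgeR adjusted p = 0.364). Tead2 was at 94.3, 76.6 and 87.9 CPM in mock and 110, 89.2 and 97.9 with TGFβ, and at 91.7, 75.1 and 75.0 in labelled Nnmt-OE cells and 96.5, 111 and 93.4 with TGFβ. Its treated libraries were all above untreated ones in labelled Nnmt-OE cells, as for 8.70% of all genes, and overlapped in mock. The log2 fold change was 0.20 ± 0.13 in mock, 0.32 ± 0.13 in labelled Nnmt-OE cells and 0.26 ± 0.09 on average, with an adjusted p of 0.0942, which ran from 0.0359 without the 3 libraries that stood apart, the only 1 of 20 alternatives with a call, to 0.258 without labelled Nnmt-OE with TGFβ replicate 2.

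Tead3 was the lowest of the TEAD genes followed, at 28.2, 21.6 and 32.8 CPM in mock and 37.7, 34.3 and 37.3 with TGFβ. In labelled Nnmt-OE cells it was at 30.2, 34.8 and 36.0 CPM, and at 29.7, 38.9 and 26.9 with TGFβ. All treated mock libraries were above the untreated ones, as for 7.78% of all genes, while labelled Nnmt-OE groups overlapped. The log2 fold change was 0.40 ± 0.20 in mock and -0.08 ± 0.19 in labelled Nnmt-OE cells, and the difference between them, -0.47 ± 0.28, had an interval from -1.03 to 0.08 (edgeR adjusted p = 0.999). Tead1 made up 66.2 ± 3.05% of Tead1 to Tead4 transcripts in mock, Tead2 23.8 ± 2.09%, Tead3 7.60 ± 1.52% and Tead4 2.41 ± 0.75% (SD, n = 3). The Tead1 share differed by -1.85 percentage points with TGFβ (exact permutation p = 0.26) and by 2.16 points with the construct (exact permutation p = 0.2).

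LATS1 and LATS2 are the kinases that restrain YAP and TAZ, and Lats2 is also a known YAP target. Lats2 was at 46.5, 49.0 and 46.7 CPM in mock and 51.4, 61.1 and 59.9 with TGFβ, and at 59.7, 56.0 and 53.2 in labelled Nnmt-OE cells and 57.0, 65.9 and 85.3 with TGFβ. The untreated mock libraries were the 3 lowest of all 12. Treated libraries were all above untreated ones in mock, as for 7.78% of all genes, and overlapped with them in labelled Nnmt-OE cells. The log2 fold change was 0.28 ± 0.15 in mock, 0.30 ± 0.15 in labelled Nnmt-OE cells and 0.29 ± 0.11 on average, with an interval from 0.07 to 0.50 (edgeR adjusted p = 0.122). Without labelled Nnmt-OE with TGFβ replicate 3, the highest library, the change in labelled Nnmt-OE cells was 0.13. Lats1 was at 44.1, 27.6 and 32.7 CPM in mock, 25.9, 25.9 and 45.4 with TGFβ, 35.0, 27.0 and 27.6 in labelled Nnmt-OE cells and 36.9, 29.9 and 20.9 with TGFβ. Its libraries rested on 100 to 257 reads each and its groups overlapped throughout. The average change of -0.07 ± 0.16 (interval -0.39 to 0.26, edgeR adjusted p = 0.899) was within the spread between replicates. Lats2 held 58.1 ± 6.34% of the pair in mock and 70.0 ± 9.86% in labelled Nnmt-OE with TGFβ (SD, n = 3), a share that was 5.48 points higher with TGFβ (exact permutation p = 0.18, adjusted 0.24) and 6.41 points higher in labelled Nnmt-OE than in mock libraries (exact permutation p = 0.125, adjusted 0.24).

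**Figure D4:**
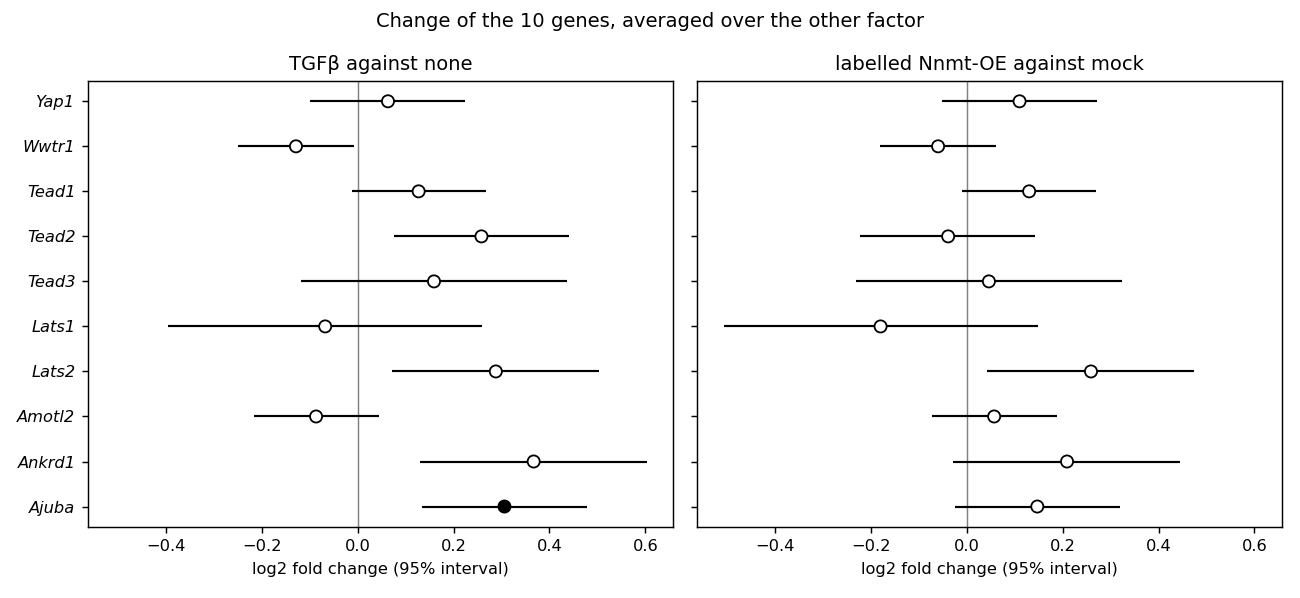
Log2 fold change of each gene with its 95% interval (horizontal axes) for TGFβ against none (left) and labelled Nnmt-OE against mock (right), each averaged over the other factor, with genes that passed the test filled. Ajuba at 0.31 is the one filled point, and in the right panel the interval of Lats2 alone leaves out 0.

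Labelled Nnmt-OE against mock asks what the construct changed. Averaged over treatments, none of the 10 genes passed the test, where 0.0698% of all genes did, and 1 of the 10, Lats2, had an unadjusted p under 0.05 (6.23% of all genes). Lats2 differed by 0.26 ± 0.11 on the log2 scale (interval 0.04 to 0.47, edgeR adjusted p = 0.699), with 0.25 ± 0.15 without and 0.27 ± 0.15 with TGFβ. The difference with TGFβ was 0.10 without labelled Nnmt-OE with TGFβ replicate 3. Its untreated labelled Nnmt-OE libraries were all above the mock ones, as for 5.64% of all genes. Ankrd1 differed by 0.21 ± 0.11 (adjusted p = 0.821), Ajuba by 0.15 ± 0.09 (0.829), Tead1 by 0.13 ± 0.07 (0.805) and Yap1 by 0.11 ± 0.08 (0.868). Wwtr1 differed by -0.06 ± 0.06, Amotl2 by 0.06 ± 0.06, Tead3 by 0.05 ± 0.14, Tead2 by -0.04 ± 0.09 and Lats1 by -0.18 ± 0.16, each with an interval that includes 0.

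Without TGFβ none of the 10 genes was called, where 0.0388% of all genes were, and at an unadjusted p under 0.05 there were 0 of the 10 (5.84% of all genes). With TGFβ none was called, where 0.0233% of all genes were, and 1 of the 10 had an unadjusted p under 0.05 (4.46% of all genes). That 1 was Tead1, whose treated labelled Nnmt-OE libraries were all above the treated mock ones, as for 5.27% of all genes. Its log2 difference was 0.21 ± 0.10 with TGFβ (edgeR adjusted p = 0.998) and 0.05 ± 0.10 without it. The neighbouring target Ccn1 was higher in labelled Nnmt-OE cells on average, by 0.38 ± 0.06 (edgeR adjusted p = 0.00021), while Ccn2 at 0.54 ± 0.13 did not pass (adjusted p = 0.395). Ccn2 was called in 6 of 20 alternatives, namely with DESeq2 (0.0417), limma-voom (0.00144), no filter (6.55e-09) and the replicate block (0.00108), without the 3 libraries that stood apart (0.000144) and without mock with TGFβ replicate 3 (0.00246), and its adjusted p reached 0.764 without labelled Nnmt-OE replicate 1. Whether TGFβ acted differently in the 2 constructs was tested as an interaction: none of the 10 genes and 0% of all genes were called by edgeR, 0 of the 10 had an unadjusted p under 0.05 (3.88% of all genes), and the differences ran from -0.47 for Tead3 to 0.16 for Tead1.

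Other genes of the pathway were read from 4 lists. With TGFβ averaged over constructs, 5.08% of all genes were called and 2.48% as higher. None of the 25 tested core kinases, scaffolds and upstream inputs was called, and their median log2 fold change was 0.01. The pair with the smallest p in this list over all comparisons were Crb3, an apical polarity protein, with a construct difference of 0.61 (edgeR adjusted p = 0.671), and Mpp5 (Pals1), its polarity partner, with a TGFβ difference in mock of -0.29 (adjusted p = 0.204). In labelled Nnmt-OE cells the TGFβ difference of Mpp5 was 0.00 ± 0.11, and on average it was -0.145 ± 0.076. Of the 30 tested inhibitors, adaptors and turnover factors, 1 was called higher, 1 lower and 28 neither, where 5.08% of all genes were called. That count is near the share over all genes. The median of the 30 was -0.001. Csnk1e, casein kinase 1 epsilon, which phosphorylates YAP and TAZ after LATS on the way to their degradation, rose by 0.38 ± 0.07 (edgeR adjusted p = 0.000294). Ptpn14, a phosphatase that holds YAP in the cytoplasm, fell by 0.34 ± 0.07 on the log2 scale (adjusted p = 0.00313). In mock alone Csnk1e was the 1 call in that list (0.41 ± 0.10, edgeR adjusted p = 0.0167), where 1.43% of all genes were called. It did not pass there without mock replicate 3 (0.37, adjusted p = 0.0730) or without mock with TGFβ replicate 3 (0.27, adjusted p = 0.168). The same held without the 3 libraries that stood apart (0.25, adjusted p = 0.224) and with only the 2 groups compared (0.41, adjusted p = 0.115).

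Of the 4 tested genes among Tead4 and the TEAD cofactors none was called with TGFβ averaged, where 5.08% of all genes were. The median of the 4 was 0.28. Runx2, a partner of TAZ in bone, differed by 0.79 ± 0.26 with TGFβ in mock (edgeR adjusted p = 0.129) and by -0.01 ± 0.26 in labelled Nnmt-OE cells, and Runx1 by 0.17 ± 0.08 on average (adjusted p = 0.293). Of the 16 tested genes of a published YAP and TAZ target signature, without the members and the CCN genes, 3 were called higher, 2 lower and 11 neither, where 5.08% of all genes were called and 2.48% as higher. Their median was 0.14. F3, the tissue factor that starts coagulation, rose by 0.43 ± 0.10 (edgeR adjusted p = 0.00358), Tgfb2, a TGFβ ligand, by 0.31 ± 0.07 (adjusted p = 0.00203) and Ccdc80, a matrix protein named after its value was seen, by 0.25 ± 0.06 (adjusted p = 0.00421). Myof, a membrane repair protein, fell by 0.29 ± 0.06 (adjusted p = 0.00102), and Ptpn14, which is in this list too, is described above. Labelled Nnmt-OE cells alone had Myof as their 1 call in the signature (-0.33 ± 0.08, edgeR adjusted p = 0.0280), where 1.40% of all genes were called. The adjusted p of Myof was 0.119 and 0.140 without labelled Nnmt-OE replicates 1 and 3. It was 0.116, 0.167 and 0.0738 without labelled Nnmt-OE with TGFβ replicates 1, 2 and 3. No list had a call between the constructs. Of all genes, 0.0388% were called there without TGFβ, 0.0233% with it and 0.0698% averaged over treatments. Of the listed genes F3 came closest, at 0.39 ± 0.10 averaged over treatments (edgeR adjusted p = 0.123, and 0.0129 with DESeq2).

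**Figure D5:**
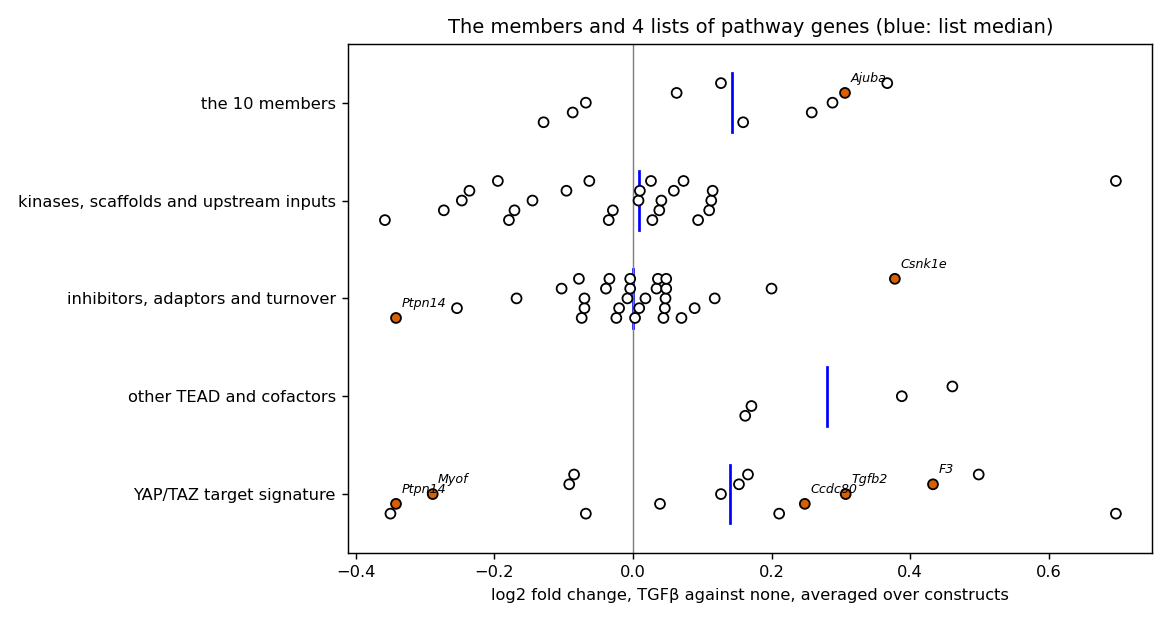
Log2 fold change with TGFβ averaged over constructs (horizontal axis) for the 10 genes and the tested genes of 4 pathway lists (rows; heights within a row only spread the points), with called genes in orange and the median of each row in blue. Medians run from -0.001 for the inhibitors and adaptors to 0.28 for the 4 genes among Tead4 and the TEAD cofactors. The target signature has 3 called genes on the right and 2 on the left of 0, where 5.08% of all genes were called.

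Annotated exons of Yap1, Tead2 and Lats2 overlap those of another gene (Gm20416, Cd37 and Gm49361), and each of those partners had 0 reads in the table. Gm20416 and Cd37 lie on the opposite strand, and Gm49361 lies on the same strand as Lats2. The strand setting of the counting is not given in the sources used here, so whether reads of antisense partners could be counted with these genes is unknown. Reads in exons that Lats2 shares with Gm49361 may have been left out of its count under any strand setting. How many is unknown, so the level of Lats2 against Lats1 and its share of the pair are approximate.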

How the data were processed

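Libraries were made from 100 ng of RNA by a 3' tag method (QuantSeq forward), per the labels' protocols. Molecular identifiers are not mentioned, and a count is a read. The authors deposited 1 table of raw counts of reads per gene for the 12 libraries. STAR (alignment) and HTSeq (counting) are listed in the submitters' processing notes without a version, and GRCh38 is named there, although the identifiers are mouse Ensembl identifiers. For the strand setting and the annotation release, the sources used here give nothing. The 5 HTSeq totals entered neither library sizes nor tests, and reads outside genes made up 26.4 to 28.79%. GENCODE M21 names matched 55141 identifiers (99.4%).

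Samples were grouped by title. All 12 libraries entered 1 fit of group means in edgeR 4.0.16 (R 4.3.3): filterByExpr (minimum count 10, total 15), TMM scaling (factors 0.981 to 1.011), the quasi-likelihood F test (robust), with p-values adjusted by Benjamini-Hochberg over 12897 genes at 0.05. The test was checked on simulated data first. Replicates of a group differed by more than sampling noise (chi-square per degree of freedom 4.95 to 18.17). Paralog shares were tested by exact permutation within the other factor, an addition made after values were seen. Promoter windows are RefSeq's, of GRCm38.p6. Alternatives were DESeq2 1.42.0, limma-voom 3.58.1, RLE scaling, no scaling factor, no filter or a stricter one (1 CPM in 3 libraries, 50 counts in total), a replicate block, each library left out, the 3 libraries that stand apart left out, and only the groups compared.

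The members and lists were chosen with earlier results of these data known. Genes named beyond the members are those of each list called in any comparison, up to 4 by adjusted p, or the 2 with the smallest p where none was called, the 3 most like Ajuba, Ccn1 and Ccn2. Ccdc80 is outside that rule. A gene that the rule covers is not reported here. Genes of the lists not tested were below the filter.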

Additional observations from a re-analysis of the deposited data

How the results depend on the processing

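The alternatives kept the direction of Ajuba, Ankrd1, Lats2, Tead2 and Wwtr1 with TGFβ averaged over constructs. For TGFβ averaged, 2 of the 10 genes were called with DESeq2, limma-voom, no filter, the replicate block and without the 3 libraries that stand apart, and 0 to 2 when 1 library was left out. For TGFβ in mock, 1 was called with limma-voom and with no filter, and 0 to 1 when 1 library was left out. For TGFβ in labelled Nnmt-OE cells, 1 was called with no filter. For labelled Nnmt-OE against mock and for the interaction none was called under any alternative.

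Over all genes, TGFβ in mock had 184 calls, 284 with DESeq2, 92 with only the groups compared and 98 to 188 when 1 library was left out. TGFβ in labelled Nnmt-OE cells had 180 calls, 274 with DESeq2, 351 with only the groups compared and 97 to 305 when 1 library was left out. TGFβ averaged over constructs had 655 calls, 473 to 649 when 1 library was left out and 626 to 795 under the other alternatives. The construct without TGFβ had 5 calls, 13 with no filter, 3 with only the groups compared and 3 to 6 when 1 library was left out. With TGFβ it had 3 calls, and 1 to 3 when 1 library was left out. Averaged over treatments it had 9 calls, 27 with DESeq2, 19 with no filter and 5 to 9 when 1 library was left out. The cause of these moves was not tested.

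Signs turned only for values that did not pass the test. Without the 3 libraries that stand apart, Tead3 with TGFβ in labelled Nnmt-OE cells was 0.03, and the construct difference averaged over treatments was 0.01 for Tead2 and 0.17 for Lats1. With limma-voom, Runx2 with TGFβ in labelled Nnmt-OE cells was 0.048. When 1 library was left out, the values ran from -0.25 to 0.034 for Tead3 and -0.25 to 0.16 for Runx2 with TGFβ in labelled Nnmt-OE cells, and -0.22 to 0.038 for Lats1 with TGFβ averaged over constructs. They ran from -0.035 to 0.16 for Tead1 between constructs without TGFβ, and averaged over treatments from -0.091 to 0.002 for Tead2 and -0.04 to 0.12 for Tead3.

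The replicate numbers showed no sign of pairing: over 18 pairs of same-numbered libraries the correlation of deviations ran from -0.102 to 0.047. With 3 libraries per group, such a check cannot settle whether same-numbered libraries shared a culture. With the replicate block Ankrd1 joined the calls for TGFβ averaged over constructs (0.36, edgeR adjusted p = 0.0130). With no filter on low counts, the Ankrd1 change was 0.371 ± 0.060 (SE, edgeR adjusted p = 1.18e-06), against 0.367 ± 0.108 in the main fit. The smaller p came with a smaller SE at nearly the same change, and the cause was not tested. Where a group was left with 2 libraries, these are assumed to vary like the other groups. The paralog shares were also recomputed without each library, a choice made after seeing the data: the Wwtr1 share kept its direction and an exact permutation p under 0.05 for both factors, while the Lats2 share differed by 2.88 to 7.78 points with TGFβ (exact permutation p 0.045 to 0.405) and by 3.81 to 8.71 with the construct (exact permutation p 0.04 to 0.31). Its p was under 0.05 in 1 of 12 cases for each factor, without labelled Nnmt-OE with TGFβ replicate 1.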
